A study of Drosophila melanogaster with 16 samples.

Results

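Gcn5, Tip60, chm (chameau) and enok (enoki mushroom) encode histone acetyltransferases, and their transcripts were followed in S2 cells with and without knock-down of lamin Dm0. The members were taken by FlyBase identifier (FBgn0020388, FBgn0026080, FBgn0028387 and FBgn0034975), and all 4 are among the 15050 gene identifiers of the RNA-seq tables. S2 is a cultured Drosophila melanogaster line that its records describe as macrophage-like and derived from late embryos. Lam-KD cultures received dsRNA (double-stranded RNA) directed at lamin Dm0, control cultures received dsRNA directed at the bacterial gene lacZ, and both were kept 5 days in dsRNA by the sample records, a day longer than the methods of the study state. All groups therefore carried the RNAi treatment, in 1 cell line, and no genotype differed between them. Poly(A)+ RNA from 2 biological replicates per condition gave the 4 libraries used here.

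Histone acetyltransferases move an acetyl group from acetyl-CoA to lysines of histone tails, a modification found mainly in open, transcribed chromatin and removed by histone deacetylases. Gcn5 gave its name to one family of these enzymes and is a catalytic subunit of the SAGA and ATAC coactivator complexes. The main histone substrate of Gcn5 itself is the tail of H3. Tip60, chm and enok belong to the other large family, MYST. Tip60 is the acetyltransferase of a large remodelling complex that also holds the ATPase Domino and acts mainly on histones H4 and H2A variants. Chm is the fly relative of mammalian HBO1, and enok is the fly relative of mammalian MOZ and MORF and acetylates H3. The study measured H3 pan-acetylation in the same cell system and considered histone deacetylases bound to the nuclear lamina as one source of low acetylation there, so the question addressed here is whether the transcripts of these histone acetyltransferases, not all of which act mainly on H3, differed between the conditions.

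No transcript of the 4 genes changed past the threshold. Gcn5 and enok lay within the spread of the control cultures, chm was 1.13-fold as high in Lam-KD cells as in control cells (unadjusted p = 0.180 in edgeR) and Tip60 0.822-fold as high (unadjusted p = 0.0254 in edgeR), and the difference of Tip60 did not hold after adjustment over all genes tested. Each deposited value is an estimated count of one gene, and these sum to between 14722940 and 16601579 over the gene identifiers of a library. The 4 genes passed the expression filter of edgeR, as did 8283 genes in all, and levels are given as CPM, counts per 1000000 counts of a library, scaled by TMM factors that lie between 0.983 and 1.01. Counts also grow with transcript length, which is not used here, so the levels of different genes are not ranked against each other. CPM are shares of the RNA of a culture, in which less RNA per cell and fewer expressing cells cannot be told apart. The genes are placed on chromosome arms 3L (Gcn5), X (Tip60), 2L (chm) and 2R (enok) in the RefSeq gene table of Release 6. Their positions on dm3, the build of the ChIP-seq and Hi-C files, were not used here, so H3 pan-acetylation and contacts were not read at these genes.

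**Figure D1:**
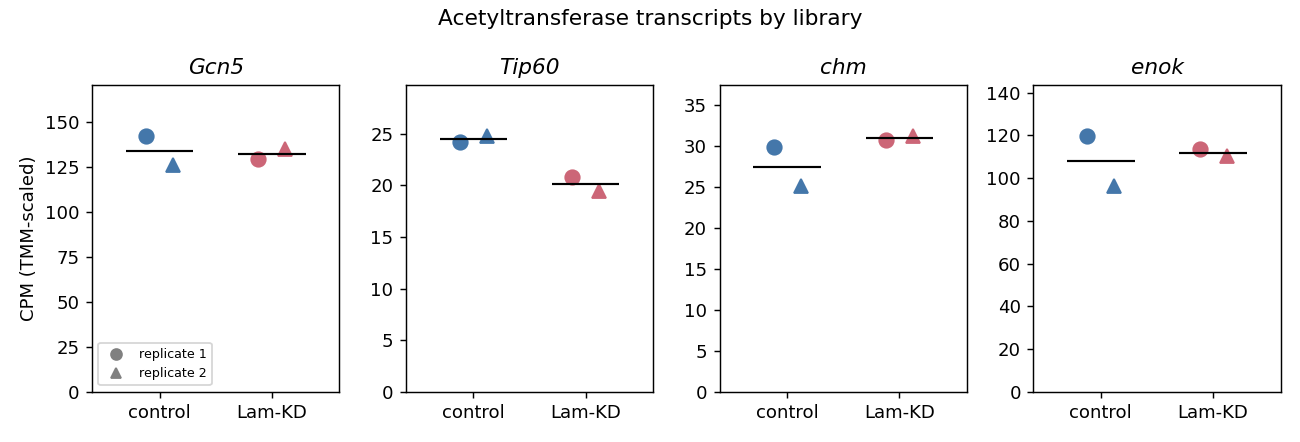
Level of each gene in CPM (TMM-scaled, axis from 0) in the 2 control and 2 Lam-KD libraries, with circles for replicate 1, triangles for replicate 2 and a bar for the mean of a condition. Both Lam-KD libraries lie below both control libraries for Tip60 and above both for chm, and the conditions overlap for Gcn5 and enok.

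For Gcn5, a catalytic subunit of SAGA and ATAC, the control libraries held 2315 and 1847 counts, and 2092 and 2239 counts were found upon Lam-KD. In CPM these were 142 and 126 in control cells and 129 and 135 in Lam-KD cells. The Lam-KD libraries thus lay between the control libraries. The mean was 134 ± 11.4 CPM in control cells (SD, n = 2) and 132 ± 3.84 CPM in Lam-KD cells (SD, n = 2). The log2(FC) of Lam-KD over control was -0.02 (standard error 0.092, 95% interval -0.24 to 0.20, edgeR quasi-likelihood adjusted p = 0.943). This interval, which is not adjusted for the number of genes, runs from 0.845-fold to 1.15-fold.

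Enok, the MYST enzyme of the MOZ and MORF type, had 1952 and 1417 counts in control cells and 1840 and 1834 counts in Lam-KD cells. Its levels were 120 and 96.5 CPM in control cells and 114 and 110 CPM in Lam-KD cells. Here too both Lam-KD libraries fell inside the control range, so the widest gap was that between the control libraries. The mean was 108 ± 16.4 CPM (SD, n = 2) in control and 112 ± 2.37 CPM (SD, n = 2) in Lam-KD cells. The log2(FC) was 0.05 (standard error 0.12, 95% interval -0.23 to 0.33, edgeR quasi-likelihood adjusted p = 0.890). Its direction rested on single cultures, since it was 0.20 without control replicate 1 and -0.10 without control replicate 2.

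Chm, the fly relative of HBO1, had 487 and 369 counts in control cells and 498 and 520 counts in Lam-KD cells. These correspond to 29.9 and 25.1 CPM in control cells and to 30.7 and 31.3 CPM in Lam-KD cells. Both Lam-KD libraries were above both control libraries, and the log2 difference was 0.04 in the closest and 0.31 in the widest of the 4 possible pairings. Such an arrangement was common, since 22.8% of the genes tested had both Lam-KD libraries above both control libraries. The log2(FC) was 0.17 (standard error 0.11, 95% interval -0.10 to 0.45, edgeR quasi-likelihood unadjusted p = 0.180 and adjusted p = 0.614). It was 0.29 without control replicate 1 and 0.05 without control replicate 2, so its size depended on which control culture was used, and over all 11 alternative settings the adjusted p lay between 0.177 and 1.00.

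Tip60, the acetyltransferase of the Domino-containing complex, had 395 and 364 counts in control cells and 337 and 324 counts in Lam-KD cells. Its levels were 24.2 and 24.8 CPM in control cells and 20.8 and 19.5 CPM in Lam-KD cells. Both Lam-KD libraries were below both control libraries, as they were for 21.8% of the genes tested. The mean was 24.5 ± 0.404 CPM (SD, n = 2) in control and 20.1 ± 0.940 CPM (SD, n = 2) in Lam-KD cells. The log2(FC) was -0.28 (standard error 0.098, 95% interval -0.52 to -0.05), with an unadjusted p of 0.0254 and an adjusted p of 0.506 in the quasi-likelihood test of edgeR. The unadjusted p ranked 397 among the 8283 genes, and 9.57% of the genes tested had an unadjusted p under 0.05, a group that numbers 793 genes. DESeq2 gave a log2(FC) of -0.29 (standard error 0.18, unadjusted p = 0.105, adjusted p = 0.944). The unadjusted p under 0.05 in the quasi-likelihood test was thus not reached in DESeq2. In edgeR's exact test the unadjusted p was 0.0465. With other scaling, other filters or a replicate block, all 4 libraries kept, the quasi-likelihood test gave unadjusted p between 0.0197 and 0.0402. Over the 11 alternative settings the log2(FC) stayed negative, between -0.33 and -0.24, and the adjusted p lay between 0.155 and 1.00.

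A limit of the counting applies to Tip60 and Gcn5. In Release 6 the gene overlaps dgt4 and tyf, and Gcn5 overlaps ver, whereas chm and enok overlap no other annotated gene. Whether reads were counted by strand is not given in the sources used here, so reads of overlapping genes may enter the counts of Tip60 and Gcn5, and their part in the difference was not tested.

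**Figure D2:**
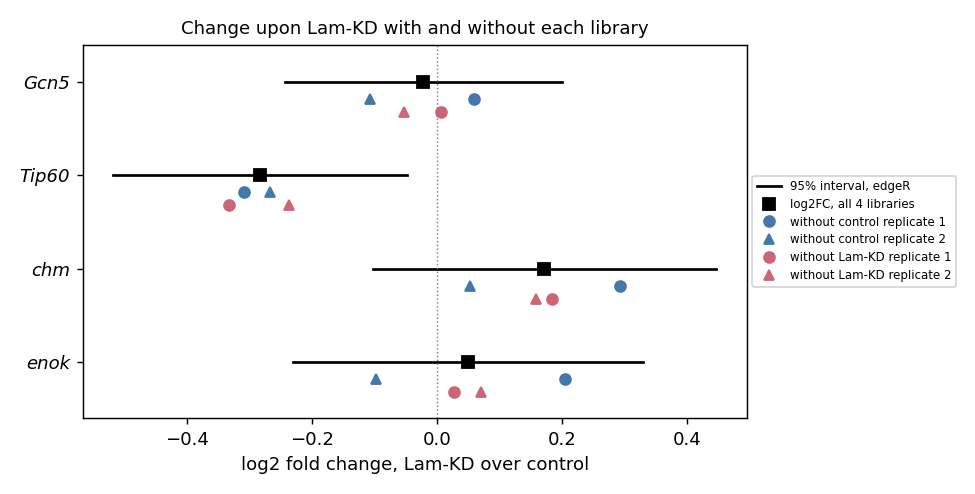
Log2 fold change of each gene, Lam-KD over control, from all 4 libraries (squares, with the 95% interval of the edgeR fit as a line) and after leaving out each library in turn (blue for a control library, red for a Lam-KD library, circles for replicate 1, triangles for replicate 2). Only the interval of Tip60, from -0.52 to -0.05 before adjustment for the number of genes, lies on one side of 0, and the values of Gcn5 and enok change sign with the library left out.

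Of the 4 genes, 0 passed an adjusted p under 0.05 in edgeR's quasi-likelihood test, in DESeq2 or in edgeR's exact test. Only 1, Tip60, had an unadjusted quasi-likelihood p under 0.05, as did 9.57% of the genes tested. At an adjusted quasi-likelihood p under 0.05, 0.0362% of all 8283 genes tested were called, 3 higher and 0 lower in Lam-KD cells. The 0 of 4 acetyltransferase genes lies at this background. DESeq2 called 23 higher and 19 lower and edgeR's exact test 45 higher and 25 lower. The median absolute log2(FC) over the genes tested was 0.12, with quartiles of 0.06 and 0.22. Gcn5 and enok lay below the median, with 10.1% and 21.7% of the genes tested showing a smaller absolute log2(FC). Chm lay above it at 64.8%, and Tip60 lay in the upper quartile at 83.6%.

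**Figure D3:**
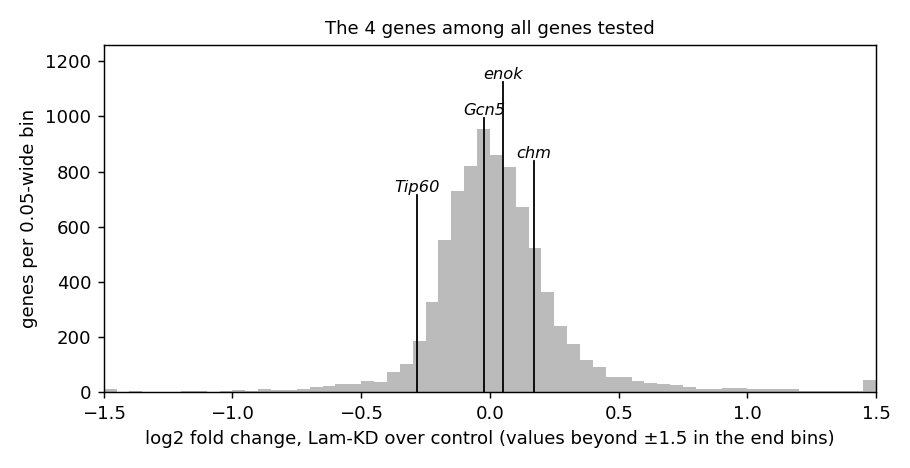
Number of genes in each bin of log2 fold change (Lam-KD over control, bins 0.05 wide, values beyond ±1.5 in the end bins) for the 8283 genes tested, with vertical lines at the 4 acetyltransferase genes. The line heights only separate the names. Gcn5 at -0.02 and enok at 0.05 sit in the centre, chm at 0.17 and Tip60 at -0.28 on the flanks.

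The spread between cultures was unequal in the 2 conditions. The control libraries differed by a log2 value of 0.17 for Gcn5, 0.25 for chm and 0.31 for enok, each higher in replicate 1. If the estimated counts were independent reads, counting alone would give standard errors of 0.045, 0.10 and 0.050 for these differences. For Tip60 the control gap was -0.03, against a counting standard error of 0.10. Between the Lam-KD libraries the gaps were smaller in size for Gcn5, chm and enok, at -0.06, -0.02 and 0.04, and that of Tip60 was 0.10, with counting standard errors of 0.044, 0.090, 0.048 and 0.11 in the order Gcn5, chm, enok and Tip60. The same held across the genes tested, whose median gap was 0.16 between the control libraries and 0.089 between the Lam-KD libraries. The estimated counts sum to more than the number of reads that the methods of the study state, so the counting errors given here are too small, and they cover counting error only. The coefficient of variation between replicates that edgeR estimated was 7.82% for Gcn5, 8.16% for Tip60, 9.28% for chm and 9.22% for enok. The median over the genes tested was 9.06%. These estimates leave out counting error and are drawn towards those of all genes tested, so they are not the observed spread of each gene. A smaller coefficient was estimated for 21.9% of the genes tested in the case of Gcn5, 30.2% for Tip60, 53.2% for chm and 52.5% for enok.

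The ratio of the counts of a pair of these genes within a library does not depend on how libraries are scaled to each other. The ratio of Tip60 to chm was 0.811 and 0.986 in control cells and 0.677 and 0.623 in Lam-KD cells. The mean log2 ratio of Lam-KD minus that of control was -0.46, or 0.726-fold, while the control libraries differed by 0.28 and the Lam-KD libraries by 0.12. The ratio of Tip60 to enok was 0.202 and 0.257 in control and 0.183 and 0.177 in Lam-KD cells, and that of Gcn5 to Tip60 was 5.86 and 5.07 in control and 6.21 and 6.91 in Lam-KD cells. Each of the 3 ratios that contain Tip60 was separated between the conditions in the direction of less Tip60. Gcn5 to chm, at 4.75 and 5.01 in control and 4.20 and 4.31 in Lam-KD cells, and chm to enok, at 0.249 and 0.260 in control and 0.271 and 0.284 in Lam-KD cells, were separated in the direction of more chm. Only Gcn5 to enok overlapped, with 1.19 and 1.30 in control and 1.14 and 1.22 in Lam-KD cells. How often such a ratio is separated over all pairs of genes tested was not computed, so these counts have no background. Separation was common for single genes, with both Lam-KD libraries above both control libraries in 22.8% of the genes tested and below in 21.8%. The 6 ratios are built from 4 genes and are not independent of each other. They also use the same counts as the log2(FC) values. Tip60 had the lowest of those values (-0.28) and chm the highest (0.17), so the wide difference of Tip60 to chm restates them and is no further support. A two-sided exact permutation test with 2 libraries per condition cannot give a p below 0.333, and for 5 of the 6 ratios it gave that value (adjusted p = 0.40 over the 6), so none of these differences could pass a threshold of 0.05.

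**Figure D4:**
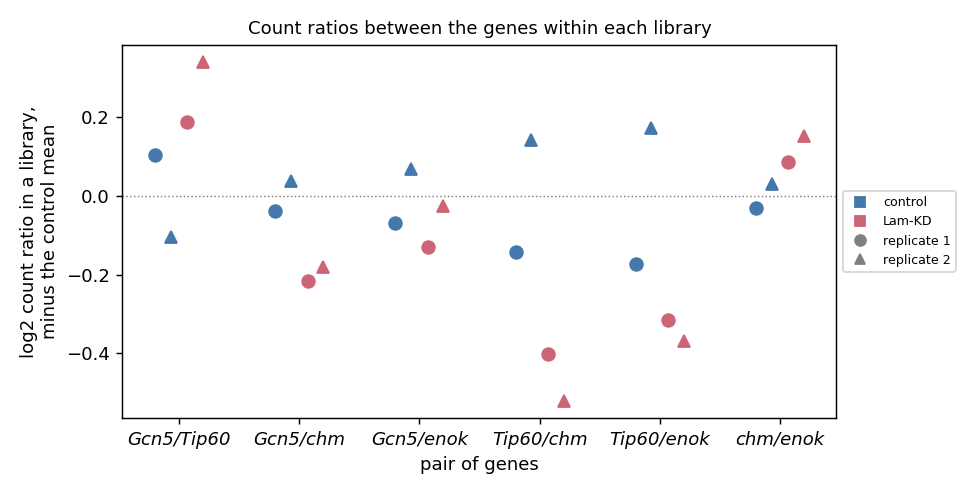
Log2 ratio of the counts of 2 genes within each library, minus the mean of the 2 control libraries, for the 6 pairs of genes (blue for control, red for Lam-KD, circles for replicate 1, triangles for replicate 2). The Lam-KD libraries lie outside the control range in 5 pairs, all but Gcn5/enok, and farthest from it for Tip60/chm. The share of separated ratios over all pairs of genes was not computed.

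In their pattern over the 4 libraries, chm and enok were the most alike, with a root-mean-square difference of 0.068 between their centred log2 CPM, followed by Gcn5 and enok at 0.072 and Gcn5 and chm at 0.10. These 3 genes had their lowest CPM in control replicate 2, whereas Tip60 had its highest there. Tip60 was the farthest from each, at 0.16 from Gcn5, 0.21 from enok and 0.26 from chm. With 4 libraries this is a description of these cultures.

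The partners of these enzymes were not read. A list of 51 other subunits of the SAGA, ATAC, Tip60 and Enok complexes and other acetyltransferases was drawn up, but 0 of them could be tied to a row, because the tables carry FlyBase identifiers and the gene table used here pairs 137 of them with a symbol. For the same reason 0 of 10 hemocyte markers, 0 of 7 markers of other cell types and the targeted lamin Dm0 gene were looked up, so neither the labelled cell type nor the loss of the lamin transcript was checked in these libraries.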

How the data were processed

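Poly(A)+ RNA-seq libraries of S2 cells, 2 of control and 2 of Lam-KD cultures, were analysed. Per the labels and the methods of the study, the authors mapped reads to dm3 with HISAT2 2.1.0, removed reads of low mapping quality with SAMtools, quantified genes with StringTie and deposited estimated counts per gene, whole numbers not scaled to depth. The 99 rows that are not gene identifiers hold 0.033% or less of the counts of a library and were left out. Library totals are given with the results. Differential expression was tested on all genes with edgeR 4.0.16 in R 4.3.3 (filterByExpr, TMM, quasi-likelihood test, Benjamini-Hochberg adjusted p under 0.05). Standard errors and 95% intervals were derived from the F statistic. The steps were tested on simulated data. The edgeR p-values set the difference between conditions against a variation between replicates that is estimated partly from all genes tested. They apply to these cultures only.

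The genes and lists were chosen with earlier results of these data known. Genes to be named were the 4 members, the targeted gene, listed complex genes that passed the threshold or were the most abundant or most changed of their list, and the listed genes or members nearest in pattern. Alternatives were RLE size factors, library totals, the filter of the study, no filter, DESeq2 1.42.0, edgeR's exact test, a replicate block and leaving out each library. ChIP-seq, input and Hi-C files were not used. Plots were drawn with matplotlib 3.10.9.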

Additional observations from a re-analysis of the deposited data

How the results depend on the processing

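None of the 4 genes passed the threshold under any of the 11 alternatives. Tip60 and chm kept their direction in all 11, enok in 10 and Gcn5 in 8. The log2(FC) of Gcn5 turned to 0.0073 with library totals in place of TMM. Leaving out 1 library gave -0.11 to 0.059 for Gcn5, positive at 0.059 when control replicate 1 was omitted and at 0.0065 when Lam-KD replicate 1 was omitted, and -0.098 to 0.20 for enok, with -0.098 when control replicate 2 was omitted. It gave -0.33 to -0.24 for Tip60 and 0.05 to 0.29 for chm. The count of genes called among all genes moved more. It was 7 higher with library totals. The filter of the study, with the quasi-likelihood test kept, gave 0 higher and 0 lower. DESeq2 gave 23 higher and 19 lower and edgeR's exact test 45 higher and 25 lower. The study itself reported both up- and downregulated genes with edgeR at an FDR of 0.05, and its methods do not name the edgeR test used. With 1 library left out, 12 to 541 genes were called higher and 2 to 233 lower, both most without control replicate 1. The cause was not tested. The fit with a replicate block called 31 genes higher and 22 lower and gave log2(FC) values of -0.020 for Gcn5, -0.28 for Tip60, 0.18 for chm and 0.057 for enok, none of them past the threshold. Differences between replicates 1 and 2 had a correlation of 0.042 across genes between the conditions. This does not settle whether cultures with the same replicate number were prepared together, which the sample titles do not state. In fits that leave 1 library in a condition, that library is assumed to vary like the others. The count of complex genes called was not computed under any setting, since 0 listed genes were tied to a row. The intervals given are not adjusted for the number of genes and are no detection limit of the adjusted test.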
